A study of Mus musculus with 2 samples.

Results

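The genes of cholesterol synthesis and sterol homeostasis were compared between wild-type and Adipoq-/- mouse liver. The set was given as 31 symbols, and a symbol entered where it named a row of both deposited tables. Of these, 29 were found among the 13326 gene symbols of the series. Msmo1 is the current symbol of the gene listed as Sc4mol, so both stand for 1 gene, and Hmgcs1 was not analysed here. None of the 29 was listed in more than 1 row, and all 29 reached 1 FPKM in at least 1 library. FPKM are counts of fragments divided by transcript length and by the total mapped, so that levels can be compared between genes.

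The mice were males of the C57BL/6J strain aged 12 weeks, fasted overnight, and either wild type or Adipoq-/-, without a working gene for adiponectin, a hormone released by fat cells. How the deleted allele was made is not given in the sources used here. RNA from the livers of 9 to 10 mice of a genotype was combined, and 1 library was sequenced from each pool. Differences between animals were therefore not measured, no test across samples was possible, and every value below describes these 2 libraries without a replicate check. In whole liver, fewer cells of a type and less RNA per cell cannot be told apart.

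Cholesterol is built from acetyl-CoA through mevalonate, isoprenoid phosphates, squalene and lanosterol. When sterols in the endoplasmic reticulum run low, the escort protein Scap carries the transcription factor precursors called SREBP to the Golgi, where they are cleaved, and the SREBP2 form switches on most genes of the pathway. Insig proteins hold Scap back when sterols are plentiful. Excess cholesterol is esterified, or secreted into bile by the transporter pair Abcg5 and Abcg8, whose genes respond to the liver X receptors.

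The targeted gene Adipoq was not analysed here, which leaves the labels unchecked. The 7 hepatocyte markers were all present, with a summed level of 38096 FPKM in the wild-type library against 34504 in the knockout. Kupffer cell markers (8 of 8 present) summed to 192 and 234 FPKM, endothelial markers (6 of 6) to 20.5 and 18.2, stellate cell markers (6 of 7) to 71.9 and 72.3, and cholangiocyte markers (3 of 5) to 16.2 and 23.6. Of 5 adipocyte markers 2 were found (22.9 and 13.0 FPKM), and of 7 lymphocyte markers 2 (2.78 and 2.01). No marker found was at 0 in either library. Within several lists the markers went both ways in FPKM as deposited. Lyz2 was 72.5 FPKM in the wild-type library against 116 in the knockout, with Vsig4, Marco and Timd4 also higher. Clec4f, Cd5l, Csf1r and Cd68 of the same Kupffer cell list had lower FPKM in the knockout, as did 66.9% of all genes tested. Relative to the all-gene median ratio, as defined below, 6 of the 8 Kupffer cell markers were higher, with a median log2 ratio of 0.24. On that scale Clec4f was at 0.06, Cd5l at 0.10, Csf1r at -0.03 and Cd68 at -0.04. Of the adipocyte markers Cfd was 13.3 and 2.01 FPKM, and Fabp4 9.61 and 11.0. Of the cholangiocyte markers Spp1 was 13.4 and 21.0, Krt19 1.02 and 1.09, and Sox9 1.72 and 1.52. All 3 lay above the all-gene median ratio, Sox9 only by 0.04. The part of these cells in the sterol gene values was not tested.

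Most sterol genes had lower FPKM in the knockout library, by small amounts. As deposited, 26 of the 29 were lower in the knockout library, where 66.9% of the 11985 genes with at least 1 FPKM in a library were also lower. Differences are therefore given as a relative log2 ratio. This is log2 of (knockout FPKM + 1) over (wild-type FPKM + 1), minus its median over all 11985 genes, which was -0.15. On this scale 21 of 29 members lay below 0, as did 50.0% of all genes by construction, and the member median was -0.12. Among members, 6 were at least 20% lower (11.7% of all genes were) and 1 was at least 25% higher (19.8%), the same fold in either direction. The lower count depended on the setting: it was 3 of 29 with a pseudocount of 0.1 FPKM, a smaller share (10.3%) than that of all genes (17.6%). It was 12 as deposited (26.2% of all genes), 13 centred on genes of like mean FPKM (12.5%) and 20 with both libraries scaled to equal sums (43.6%). Cyp51, Fdft1 and Hsd17b7, at -0.33 to -0.32, lay just past this threshold, and Pmvk, at -0.31, just short of it. A difference of at least 1.5-fold was reached by 1 member on the lower side (2.61% of all genes) and by none on the higher side (6.73%). No member was 2-fold apart, against 0.476% of all genes lower and 0.884% higher. Summed over the 29 genes, the level was 2479 FPKM in the wild-type library against 1990 in the knockout, 19.7% less. Abundant genes weigh most in this sum, and Sc5d, at 358 and 200.3 FPKM, had the widest gap. The sum over all genes went the other way, from 798170 to 891964 FPKM, so the share of the members was 0.311% of the wild-type sum and 0.223% of the knockout sum.

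Abundance and transcript length both moved with the ratio across the whole data set. Among the 4991 genes that averaged 10 FPKM or more, which include 27 members, 39.5% lay below 0 and 9.42% were at least 20% lower, against 21 and 6 of the 27 members. The median relative log2 ratio of all genes went from 0.40 in the decile with the shortest transcripts to -0.12 in the decile with the longest. Members had a median longest transcript of 3027 bases, and all genes with a length one of 2729. Centred on genes of like length, 16 of 29 members (55.2%) lay below 0, close to the 50.0% of all genes, and with the median transcript length of each gene the count was 22. Centred on genes of like mean FPKM the count was 24 of 29, and centred on both together it was 18 of 29. The share of members below 0 therefore ranged from near the background to well above it with the reference chosen.

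**Figure D1:**
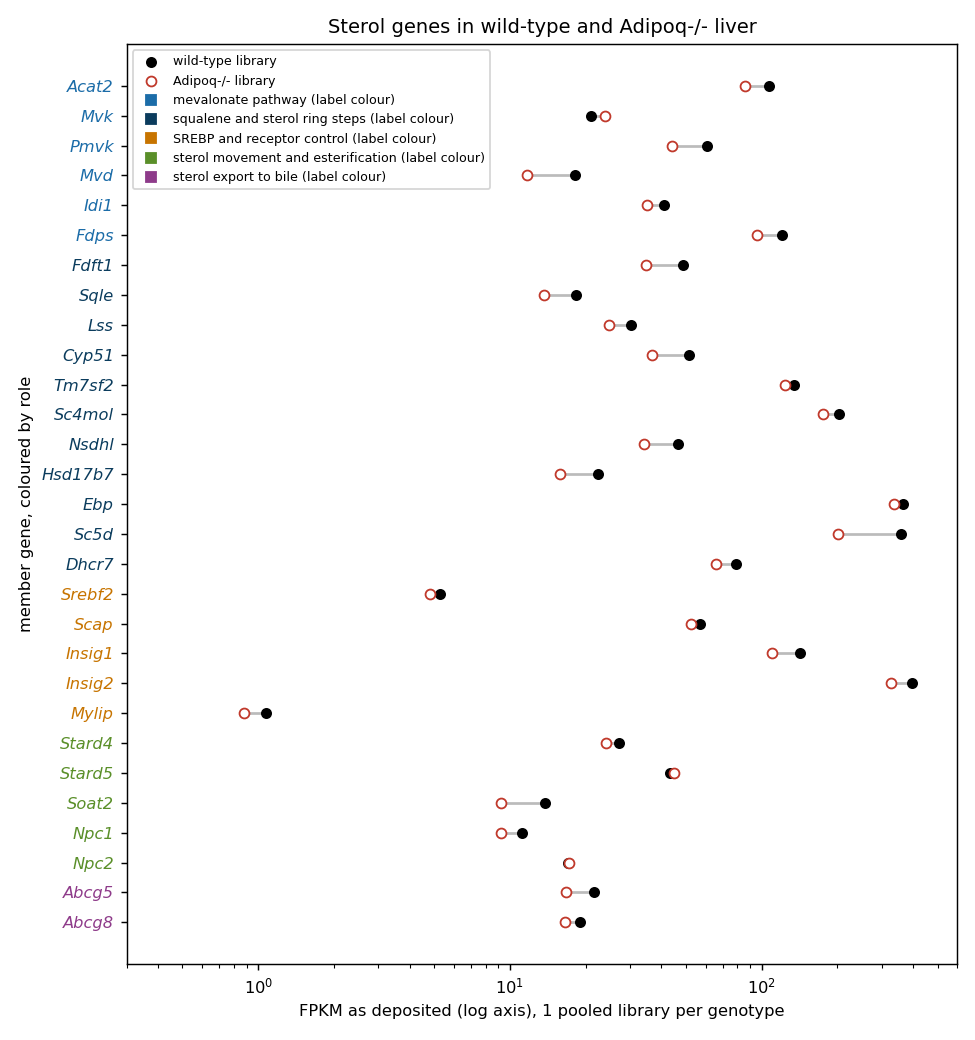
FPKM of the 29 sterol genes in the wild-type library (filled points) and the Adipoq-/- library (open points) on a log axis, 1 pooled library per genotype, with gene names coloured by role. The open point lies to the left for 26 genes, and the gap is widest for Sc5d, at 358 and 200.3 FPKM.

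The mevalonate pathway turns acetyl-CoA into farnesyl diphosphate. Of its 6 measured enzymes 5 lay below 0, with a median relative log2 ratio of -0.17 and summed levels of 368 and 296 FPKM. Mvd, which decarboxylates mevalonate diphosphate, stood at 18.2 FPKM in the wild-type library against 11.6 in the knockout. It was 36.1% lower as deposited, and its relative log2 ratio of -0.45 was undercut by 5.46% of all genes. Pmvk, phosphomevalonate kinase, was 60.9 and 44.0 FPKM (relative log2 ratio -0.31).

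Mvk, mevalonate kinase, acts just before Pmvk and went the other way. Its level was 20.9 FPKM in the wild-type library against 23.8 in the knockout, and its relative log2 ratio of 0.33 was the highest of all 29 members. Fdps, which makes farnesyl diphosphate, was 121 and 96.1 FPKM (-0.18), and Acat2, the cytosolic thiolase that opens the pathway, 107 and 85.8 (-0.16). Idi1, the isomerase of isopentenyl diphosphate, lay near other genes at 40.9 and 35.1 (-0.06). Acat2 and Idi1 share sequence with other genes. In the GENCODE vM21 annotation 50.5% of the 31-base words of the longest Acat2 transcript also occur in Acat3, and 32.0% of those of Idi1 occur elsewhere, so fragments may have been split between copies.

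The promoters of Mvd and Mvk are shown because these genes had the lowest and the highest ratio of the mevalonate enzymes. Each runs 5′ to 3′ on the strand of the gene, from 250 bases before to 50 bases after the RefSeq start on build GRCm38.p6, a different build from the mm9 named for the deposited values. Capitals mark the letters CCAAT, the core recognised by the factor NF-Y, or their complement on the opposite strand. The Mvd window is chr8:122443373-122443672 on the minus strand, and the Mvk window is chr5:114444019-114444318 on the plus strand.
Mvd: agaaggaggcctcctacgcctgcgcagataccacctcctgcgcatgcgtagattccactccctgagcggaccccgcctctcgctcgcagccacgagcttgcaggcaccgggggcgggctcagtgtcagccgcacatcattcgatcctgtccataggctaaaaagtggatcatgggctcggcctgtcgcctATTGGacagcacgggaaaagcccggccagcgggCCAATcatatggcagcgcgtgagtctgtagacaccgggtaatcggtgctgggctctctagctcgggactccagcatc
Mvk: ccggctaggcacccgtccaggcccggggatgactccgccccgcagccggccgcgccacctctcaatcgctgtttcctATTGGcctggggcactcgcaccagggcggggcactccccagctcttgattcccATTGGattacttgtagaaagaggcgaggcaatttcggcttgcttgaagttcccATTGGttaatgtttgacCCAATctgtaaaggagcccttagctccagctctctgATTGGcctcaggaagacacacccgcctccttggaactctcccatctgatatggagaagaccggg
CCAAT stood 60 and 27 bases before the Mvd start. The Mvk window held it 5 times, at 173, 120, 67, 50 and 14 bases before the start. Mvk thus held more copies than Mvd. The pair was chosen by its ratios, and whether copies go with the ratio was not tested.

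Windows were at hand for 23 of the 29 members, 30 windows in all. CCAAT on either strand occurred in 70.0% of them and in 37.4% of 32851 windows of the same length over all genes. By gene it was in 21 of 23, some with more than 1 window, and the share by gene over all genes was not computed. The windows of all genes were not matched to those of members for base content or expression. GGGCGG, a core bound by Sp1, occurred in 76.7% of member windows and 35.7% of all windows, and CACGTG, an E-box, in 20% and 7.15%. By gene they were in 20 and 5 of 23, again without the share over all genes. Some windows of Scap, of Dhcr7 and of Abcg5 with Abcg8 overlap. A site there can count more than once, so the windows are not separate promoters. None of the 43 CCAAT matches overlapped a match of the other motifs. The letters TCACNCCAC, one form of the sterol regulatory element core, were in no member window and in 1.24% of all windows. At so small a share, 30 windows are too few for this absence to set the members apart. No window was at hand for Fdps, Fdft1, Sqle, Stard4, Soat2 and Npc1. A match is a run of letters only, and binding was not measured.

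**Figure D2:**
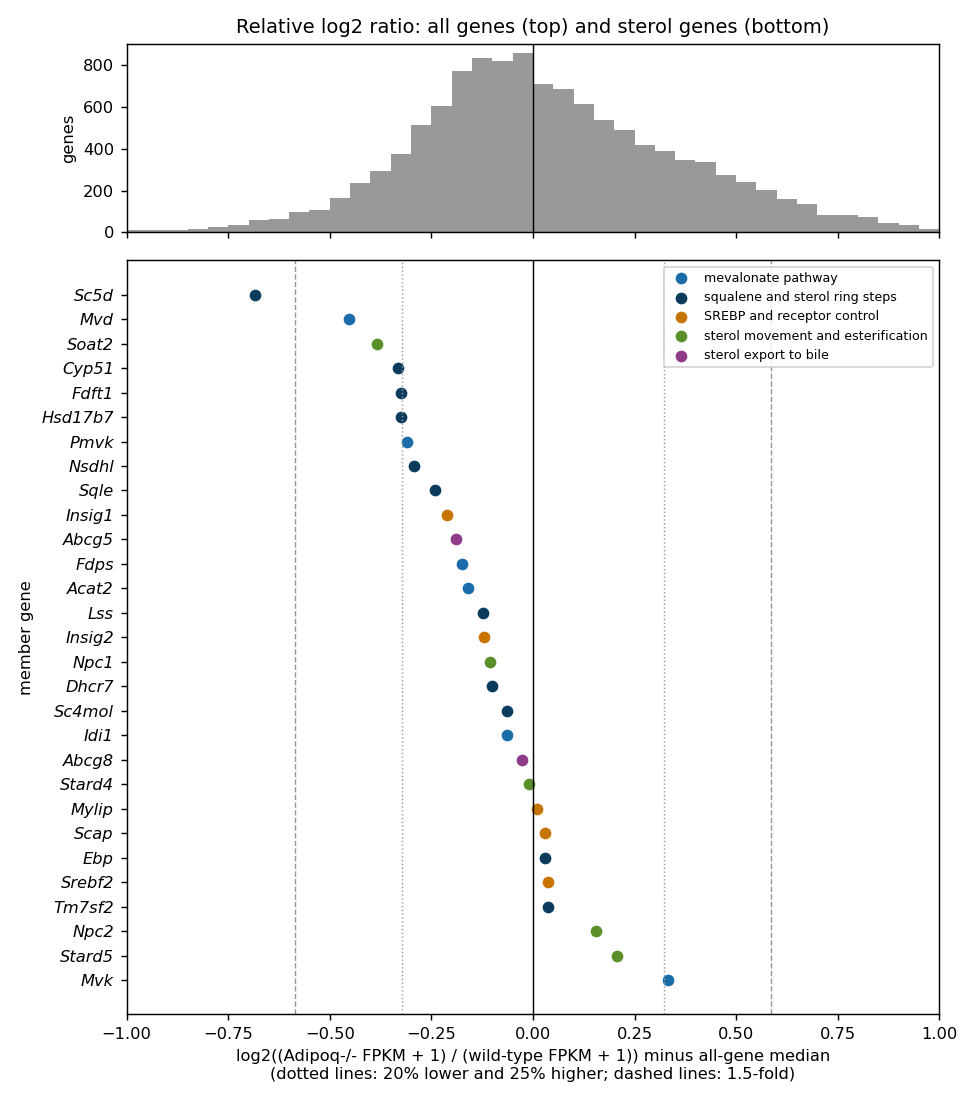
Relative log2 ratio of knockout over wild type, as a histogram of all genes between -1 and 1 (top) and for each sterol gene in order, coloured by role (bottom). Dotted lines mark 20% lower and 25% higher, and dashed lines 1.5-fold. Of these members, Sc5d at -0.68 lies past 1.5-fold, and Mvk at 0.33 past the dotted line on the higher side.

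The steps from squalene through the sterol rings had the lowest role median on this scale, though not under every setting. All 11 measured enzymes had lower FPKM as deposited in the knockout library, 9 of 11 lay below 0, and the median relative log2 ratio was -0.24. Centred on genes of like length it was -0.13, as was that of the mevalonate pathway. The mevalonate median was the lower one when centred by mean FPKM (-0.40 against -0.32), by length and mean FPKM together (-0.15 against -0.14) and without the members that share sequence with other genes (-0.24 against -0.18). By median transcript length the regulators were lowest, at -0.16 against -0.14. Summed levels were 1358 FPKM in the wild-type library against 1060 in the knockout, and a large part of that gap was Sc5d alone. Sc5d, the sterol C5-desaturase near the end of the pathway, stood apart within the group. It was 358 FPKM in the wild-type library against 200.3 in the knockout, 44.1% lower as deposited. Its relative log2 ratio of -0.68 was the lowest of the 29 members, with 1.59% of all genes below it, and it was -0.55 when centred on genes of like length.

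The Sc5d promoter is shown as that of the member with the lowest ratio. It lies at chr9:42264251-42264550 on the minus strand of GRCm38.p6, with CCAAT or its complement in capitals as above.
Sc5d: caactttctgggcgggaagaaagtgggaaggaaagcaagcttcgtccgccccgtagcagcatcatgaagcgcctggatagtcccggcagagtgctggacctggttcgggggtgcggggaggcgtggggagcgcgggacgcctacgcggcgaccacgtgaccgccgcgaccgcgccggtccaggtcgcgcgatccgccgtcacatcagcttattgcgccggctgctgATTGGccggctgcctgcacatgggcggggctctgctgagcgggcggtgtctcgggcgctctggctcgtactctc
The window held CCAAT once, 24 bases before the start, GGGCGG 4 times and CACGTG once. Its set of motifs was shared with other members whose ratios were nearer 0. Hsd17b7, at -0.32, and Insig1, at -0.21, also had CCAAT together with GGGCGG and CACGTG in its window.

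The enzymes next to Sc5d in the pathway had ratios nearer 0. Ebp, the isomerase that acts just before it, was 364 and 335 FPKM (relative log2 ratio 0.03). Dhcr7, the reductase that acts after it, was 79.1 and 66.2 (-0.10). In the wild-type library Ebp and Sc5d were at nearly equal levels, with an FPKM ratio of 1.02, and in the knockout library Ebp was at 1.67 times the Sc5d level.

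A second tier of ring enzymes lay close together. Cyp51, which starts the removal of methyl groups from lanosterol, was 51.6 and 36.6 FPKM (-0.33). Fdft1, squalene synthase, was 48.9 and 34.8 (-0.33), although 36.7% of the words of its longest transcript also occur in transcripts of other genes, mainly Ctsb. Hsd17b7, a sterol ketone reductase, was 22.3 and 15.8 (-0.32), and Nsdhl, which acts with it in removing methyl groups, 46.6 and 34.0 (-0.29). Sqle, the epoxidase that commits squalene to sterols, was 18.3 and 13.7 (-0.24). These 5 genes lay below 0 in each of the 13 settings tried, and the share of all genes that did so was not computed.

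The remaining ring enzymes were nearer to the all-gene median. Lss, which closes the lanosterol rings, was 30.3 FPKM in the wild-type library against 24.8 in the knockout (-0.12). Sc4mol, the methylsterol oxidase now named Msmo1, was 204 and 175 (-0.06). Tm7sf2, a sterol reductase, was 134 and 124 (0.04). Of these, Lss and Tm7sf2 changed side with the setting, with values from -0.43 to 0.02 and from -0.27 to 0.10, and so did Ebp, from -0.28 to 0.06.

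**Figure D3:**
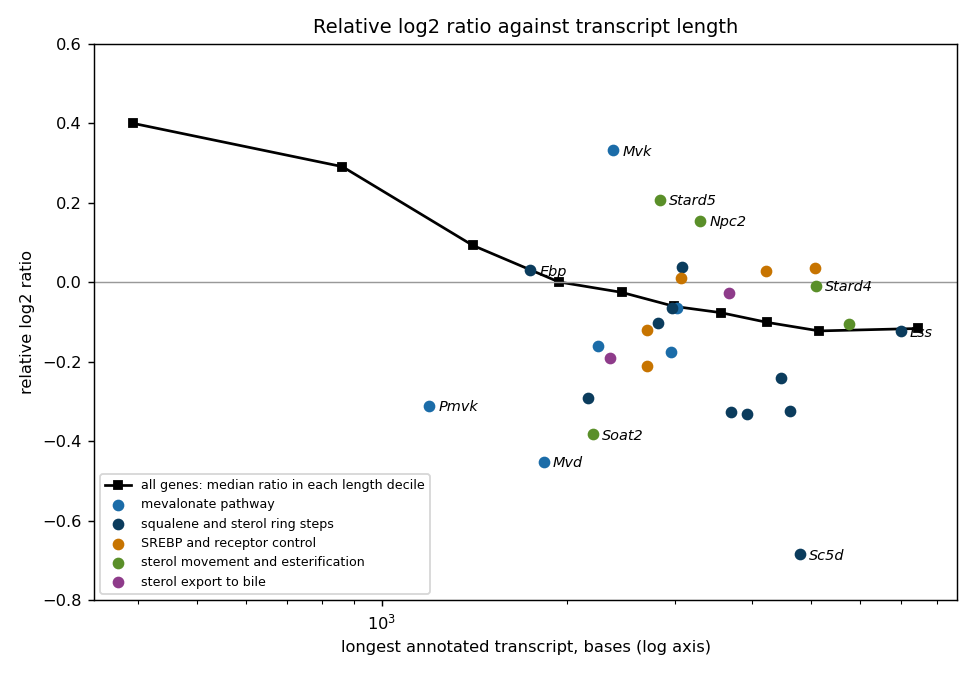
Relative log2 ratio of each sterol gene against the length of its longest annotated transcript in bases (log axis), with squares for the median of all genes in each length decile. The all-gene line goes from 0.40 to -0.12. Sc5d, Mvd, Soat2 and Pmvk lie well under the line, and Mvk, Stard5 and Npc2 lie above it.

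The regulators as a group lay near the all-gene median, at a median of 0.01 with 2 of 5 below 0. That median is the ratio of Mylip, a gene at only 1.07 and 0.879 FPKM. The group median changed sign under 8 of the alternative settings. Srebf2, the gene of SREBP2, had the second lowest level of the members, at 5.27 FPKM in the wild-type library against 4.79 in the knockout (0.04). Srebf1, which is no member but encodes the related SREBP1, was 218 and 194, or 41.3 and 40.4 times the Srebf2 level. Scap was 57.2 and 52.4 FPKM (0.03). Srebf2 and Scap changed side with the setting, Srebf2 from -0.25 to 0.20 and Scap from -0.31 to 0.12. RNA levels do not show how much SREBP2 was cleaved.

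Both Insig genes were lower by modest amounts. Insig2, which has a form induced in fasted liver, was the most abundant member in the wild-type library at 395 FPKM and second to Ebp in the knockout library at 327 (-0.12). Insig1, itself a target of SREBP, was 142 and 110.3 (-0.21). The ratio of Insig2 to Insig1 FPKM was 2.78 and 2.96. Mylip, which marks the low density lipoprotein receptor for breakdown and responds to liver X receptors, was the least abundant member at 1.07 and 0.879 FPKM (0.01). At that level the pseudocount of 1 compresses its ratio, which was -0.08 with a pseudocount of 0.1.

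The genes that move or esterify sterols did not share a direction. Their median was -0.01 with 3 of 5 below 0, and it was 0.12 when centred on genes of like length. Soat2, which esterifies cholesterol for lipoproteins and storage, was 13.8 FPKM in the wild-type library against 9.24 in the knockout. It was 33.2% lower as deposited (-0.38), the third lowest ratio of the members. Stard4, a soluble carrier of cholesterol, was 27.1 and 24.2 (-0.01). Its relative Stard5 was 43.1 and 44.9 (0.21), but 41.6% of the words in its longest transcript also occur in other genes, mainly Il16.

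Npc1 and Npc2 together pass cholesterol out of lysosomes. Npc1, the membrane protein, was 11.2 and 9.21 FPKM (-0.11), and Npc2, its soluble partner, 17.1 in both libraries (0.16). The ratio of Npc2 to Npc1 was 1.52 in the wild-type library against 1.86 in the knockout. Npc2, Stard5 and Mvk were the members whose FPKM as deposited was not lower in the knockout library. Lipa, the lysosomal hydrolase that frees cholesterol from its esters, is no member and is described with the related genes.

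Sterol export to bile rests on Abcg5 and Abcg8, whose products work as a pair. Abcg5 was 21.5 FPKM in the wild-type library against 16.8 in the knockout (-0.19), and Abcg8 was 18.9 and 16.6 (-0.03). Levels of the partners were close to each other in both libraries, with an Abcg5 to Abcg8 ratio of 1.14 and 1.01. The genes lie head to head, and their nearest RefSeq starts are 110 bases apart on GRCm38.p6. The Abcg5 window, chr17:84682962-84683261 on the minus strand, is shown because 209 of its bases also belong to the window of the nearest Abcg8 start.
Abcg5: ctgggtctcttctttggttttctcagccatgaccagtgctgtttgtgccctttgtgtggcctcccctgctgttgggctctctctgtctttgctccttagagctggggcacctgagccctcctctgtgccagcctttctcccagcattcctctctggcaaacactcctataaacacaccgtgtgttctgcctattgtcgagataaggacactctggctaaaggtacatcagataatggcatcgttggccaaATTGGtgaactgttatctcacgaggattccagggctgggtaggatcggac
CCAAT, in capitals as its complement, began at the Abcg5 start. The same letters read in the other direction lie 114 bases before the nearest Abcg8 start.

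Levels kept nearly the same order in both libraries. Across the 29 members, which share both libraries and are not replicates, log2 FPKM had a Pearson r of 0.993 and FPKM a Spearman rho of 0.979. The same values over all genes were not computed, so a kept order is not shown to be particular to the members. Between the ratio and the mean level of a member rho was -0.02. The largest gap to a neighbour in the ratio was that of Sc5d, and no error is known for any step in this order.

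**Figure D4:**
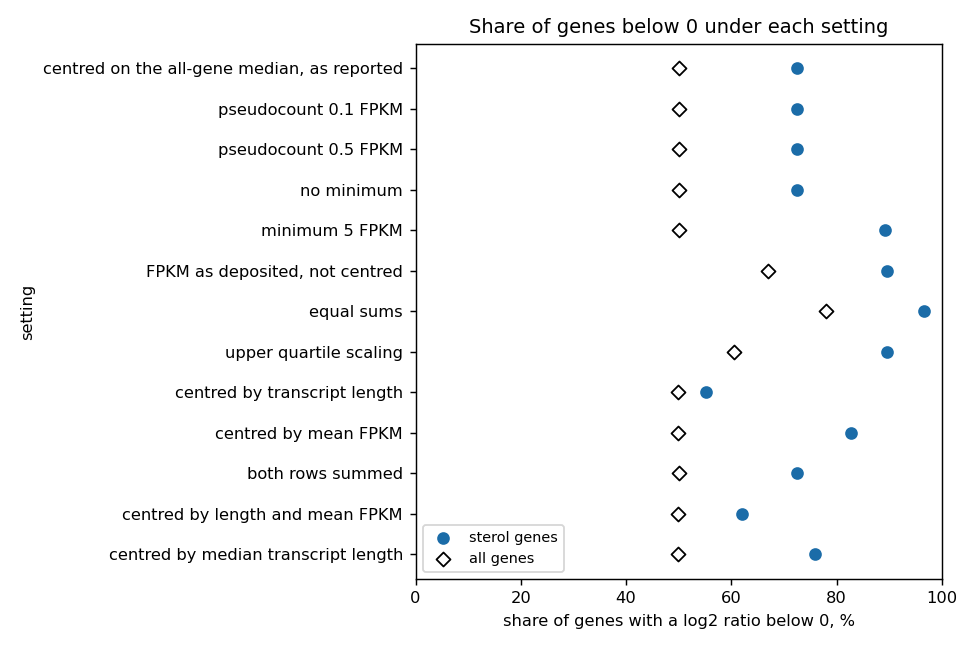
Share of genes with a log2 ratio below 0 under each setting, for sterol genes (filled points) and for all genes tested (open diamonds). The points lie furthest apart with a minimum of 5 FPKM, at 89.3% and 50.0%, and closest when genes are centred by transcript length, at 55.2% and 50.0%.

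Related genes were taken from lists, with genes farthest from 0 and the most abundant ones named. The lists were chosen with earlier results of these data known, so shares beside those of all genes are description only. Among 16 other isoprenoid and sterol synthesis genes, 10 lay below 0 (median -0.15), 5 were at least 20% lower (11.7% of all genes were) and 4 at least 25% higher (19.8% of all genes). On the higher side stood Coq2 of ubiquinone synthesis (23.9 FPKM in the wild-type library and 34.2 in the knockout, relative log2 ratio 0.65) and the geranylgeranyl diphosphate synthase Ggps1 (3.60 and 4.94, 0.52). These genes draw on the isoprenoids that the mevalonate enzymes make. The electron carrier gene Cyb5 was the most abundant, at 1518 and 1623 (0.25). Centred on genes of like length, the median of this list was -0.13, with 9 of 16 below 0.

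Of 12 genes for SREBP transport and cleavage and for reductase turnover, 10 lay below 0 (median -0.18), 4 were at least 20% lower and none was 25% higher, against 11.7% and 19.8% of all genes. The COPII coat genes Sec24d (13.0 and 8.30 FPKM, -0.44) and Sec23a (19.4 and 12.7, -0.42) and the sterol-regulated degradation factor Erlin1 (25.02 and 17.2, -0.37) were farthest from 0. Centred on genes of like length, the list median was -0.08, with 8 of 12 below 0. On that scale Sec24d was at -0.36, Sec23a at -0.33 and Erlin1 at -0.30.

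Of 13 other measured genes of sterol uptake and transport, 9 lay below 0 (median -0.16). Centred on genes of like length, 9 again lay below 0 (median -0.07). Lipa had the lowest ratio, at 68.8 FPKM in the wild-type library against 39.0 in the knockout (-0.65), near that of Sc5d. Osbpl11 was 1.96 and 1.16 (-0.30), Cav1 3.08 and 3.82 (0.39), and the abundant carrier gene Scp2 3007 and 2424 (-0.16).

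The liver X receptor genes and their other targets, 11 measured, had a median of -0.14 with 9 below 0 and 4 at least 1.5-fold lower, as were 2.61% of all genes. The latter included the phospholipid transfer protein gene Pltp (76.8 and 24.5 FPKM, -1.46) and the desaturase genes Scd2 (35.0 and 11.0, -1.43) and Scd1 (1912 and 667, -1.37), the most abundant of the list. Abcg5, Abcg8 and Mylip, which respond to the same receptors, lay between -0.19 and 0.01, and so did Srebf1 of this list, at -0.01. None of the sterol genes had a ratio as far from 0 as Pltp, Scd2 and Scd1. Because this list was drawn up with earlier results known, its count of 4 is no test against the 2.61%. Centred on genes of like length, the list median was -0.09, with 8 of 11 below 0.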

How the data were processed

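Liver RNA pools of 2 genotypes were sequenced as 1 library each, and the genotype label assigned each library. The values are FPKM as deposited by the authors. The programs TopHat and Cuffdiff and the builds mm9 and NCBIM37 are named, per the submitters' processing notes. No version, annotation or row filter is given in the sources used here. Sequencing depth is unknown. The tables hold 13352 rows. Where a symbol had 2 rows (26 symbols), the one with the larger mean FPKM was used.

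Ratios used a pseudocount of 1 FPKM, which understates differences of low genes, and a minimum of 1 FPKM in at least 1 library. They were centred on the median of all 11985 genes, and the calculation was tested on simulated data. Lengths and shared words came from GENCODE vM21, and 11571 genes had a length. Promoters were taken from RefSeq. Python 3.11.15, pandas 2.3.3 and numpy 2.4.6 were used.

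The members and lists were chosen with earlier results of these data known. Every member found is named, with the 3 genes farthest from 0 and the most abundant gene of each related list, except for 2 genes that are not reported here. Lipa and Srebf1 are also named where members are compared with them, and cell type markers where a marker list went both ways in FPKM as deposited.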

Additional observations from a re-analysis of the deposited data

How the results depend on the processing

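Of the 29 members, 16 lay below 0 in each of the 13 settings tried, Mvk lay above 0 in each, and the other 12 reached both sides or 0. The share of all genes below 0 in every setting was not computed, so the 16 have no background beside them. Several settings are alike, and 66.9% of all genes lay below 0 as deposited and 78.0% with equal sums. The settings by length and mean FPKM together, by median transcript length and without sequence-sharing members were chosen after seeing the data. Pseudocounts, minimums and the treatment of double rows left the median of all members and the count at 1.5-fold nearly as they were. The median of regulators was -0.08 and -0.02 with pseudocounts of 0.1 and 0.5, -0.08 with a minimum of 5 FPKM, -0.11 with upper quartile scaling, -0.15 centred by mean FPKM and -0.16 centred by median transcript length. The median of sterol movement and esterification was 0.01 and 0.00 with the same pseudocounts, 0.12 centred by transcript length and 0.08 centred by length and mean FPKM together. With FPKM as deposited, 2 members were at least 1.5-fold lower (6.17% of all genes), and the medians were -0.27 for all members, -0.32 for the mevalonate pathway, -0.39 for ring steps, -0.14 for regulators, -0.16 for movement and -0.26 for export. With equal sums, which shift all genes to a median of -0.28, 8 members were past 1.5-fold (12.5% of all genes), and the same medians were -0.43, -0.48, -0.54, -0.28, -0.31 and -0.41. Centring by transcript length left 0 members past 1.5-fold and a ring step median of -0.13. Centring by mean FPKM gave -0.27 for all members and -0.40 for the mevalonate pathway. At the smaller threshold 6 members were at least 20% lower and 1 at least 25% higher. The lower count was 3 with a pseudocount of 0.1, 12 as deposited, 20 with equal sums and 13 centred by mean FPKM, where 17.6%, 26.2%, 43.6% and 12.5% of all genes were lower by as much, and between 4 and 9 in the other settings. The higher count was 0 with a minimum of 5 FPKM, as deposited, with equal sums, with upper quartile scaling and centred by mean FPKM. Without the 4 members that share over 30% of their words with other genes, 18 of 25 lay below 0. The count below 0 was 16 of 29 by longest and 22 of 29 by median transcript length. The causes of these shifts were not tested. Depth is unknown, so no counting error can be given.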
